A study of Mus musculus with 4 samples.

Results

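The genes described here encode the subunits of the mitochondrial respiratory chain and of ATP synthase, with a few genes of related name, in cultured bone marrow cells of diabetic and control mice. They were taken as all rows whose symbol begins with Nduf, Uqcr, Cox4 to Cox8 or Atp5, or is Sdha, Sdhb, Sdhc or Sdhd, which gave 90 of 22700 rows. By name 42 belonged to complex I, 4 to complex II, 8 to complex III, 19 to complex IV and 17 to complex V. A level of 20 normalised reads in at least 1 library was reached by 85 of the 90 members and by 13642 of all rows, and folds are given only for these. The 5 members below that level were Cox4i2, Cox8b, Ndufa4l2, Cox7b2 and Cox8c, and the last 2 were at 0 in every library. Subunits encoded by mitochondrial DNA were not analysed here.

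Bone marrow came from 12-week-old male mice on the BKS background: type 2 diabetic db/db mice (BKS.Cg-m+/+leprdb/J), which carry the db mutation of the leptin receptor gene on both alleles, and control db/+ littermates (BKS.Cg-m+/+leprdb+/J), which carry it on 1 allele. Cells of each genotype were kept for 7 to 8 days in 20 ng/ml of GM-CSF or in 10 ng/ml of M-CSF, the growth factors commonly used to obtain dendritic-like macrophages and macrophages from marrow. The 4 groups were db/db GM-CSF, db/+ GM-CSF, db/db M-CSF and db/+ M-CSF, with 1 library of ribosome-depleted RNA each. The sources used here do not say whether a library came from 1 animal or a pool, and no comparison of a pair of libraries has a replicate check.

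The respiratory chain passes electrons from NADH through complex I, and from succinate through complex II, to ubiquinone, then through complex III and cytochrome c to complex IV, which reduces oxygen. Complexes I, III and IV pump protons, and complex V, the ATP synthase, uses the gradient to make ATP. In macrophages the balance between this pathway and glycolysis is known to shift with activation, and complex II is also known for its part in succinate signalling. In bulk RNA, fewer cells of a type and less RNA per cell cannot be told apart.

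The libraries held 28622706 and 27216116 gene reads in the db/db and db/+ GM-CSF cultures, and 27590722 and 25603389 in the db/db and db/+ M-CSF cultures. Macrophage markers were abundant in each, with all 11 listed genes present, 1 of them listed under 2 symbols (Emr1 and Adgre1). Their summed level was 770915 and 770647 in the db/db and db/+ GM-CSF cultures, against 629314 and 669788 in the db/db and db/+ M-CSF cultures. The sum is mostly Lyz2, at 621787 and 626680, against 242719 and 250024. Of the 11 genes, 3 (Lyz2, Cd68 and Itgam) had both GM-CSF levels above both M-CSF levels and 8 had both below, among them Csf1r, the M-CSF receptor, at 33103.3 and 33549.6, against 105159 and 120627, and Emr1 (F4/80), at 11449.7 and 11230.3, against 97863.4 and 98661.5. Stromal and fibroblast markers (12 listed, 11 of them at 20 or more in a library) summed to 335.7 and 301.8 in the db/db and db/+ GM-CSF cultures, against 73504.6 and 26645.6 in the db/db and db/+ M-CSF cultures; Lum was at 0 in both GM-CSF libraries, and Col3a1 and Dcn were at 0 in db/db GM-CSF. Markers of GM-CSF culture and dendritic cells summed to 91792.4 and 91069.6 in GM-CSF, against 24883 and 32605.7 in M-CSF, in the same order of genotypes, and mast cell markers to 2548.6 and 2618.9, against 243.1 and 223.5. Both GM-CSF levels lay above both M-CSF levels for 7 of the 9 GM-CSF culture and dendritic genes and below for 2. Of the 4 mast cell genes, 1 lay above and 3 below. Neutrophil markers summed to 25043.6 and 23540.8 in db/db and db/+ GM-CSF, against 17699.5 and 16928.6 in db/db and db/+ M-CSF, with 1 of 8 genes above and 7 below. Their part in the differences below was not tested. Near-identical pseudogenes, whose reads cannot be told apart here, are annotated for 21 of the 85 members, among them Ndufs3, Uqcr11, Cox7b, Cox7c, Atp5k, Atp5g1 and Atp5g2. The GM-CSF libraries of the 2 genotypes stood closer to each other than the M-CSF libraries did. Between them, db/db exceeded db/+ by 2-fold or more for 0.586% of all genes and fell short by as much for 0.476%, and between the M-CSF libraries these shares were 5.05% and 0.777%.

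Most members had higher levels in GM-CSF than in M-CSF cultures, by a moderate amount and in cells of both genotypes. Across the 85 members the median log2 fold of GM-CSF over M-CSF was 0.54 in db/db and 0.50 in db/+ cells, against 0.01 and 0.03 over all genes. In db/db cells 82 members were higher and 3 lower in GM-CSF, where 50.6% of all genes were higher, and in db/+ cells 77 were higher and 8 lower, where 51.9% of all genes were higher. The direction was higher in both genotypes for 76 members (44.25% of all genes), lower in both for 2 (Ndufa4 and Ndufc2) and opposite for 7. Over all genes, the shares lower in both and opposite were not counted. Both GM-CSF levels lay above both M-CSF levels for 73 of the 85 members (41.6% of all genes), and both lay below for 1, Ndufa4 (38.9% of all genes). Few of the differences were large: 4 members in db/db and 7 in db/+ cells were at least 2-fold higher (11.3% and 12% of all genes), and 1 in each, Ndufa4, was at least 2-fold lower (15.8% and 15.7%). At 1.5-fold, 36 members in db/db and 34 in db/+ cells were higher (19.6% and 20.6% of all genes). In both genotypes 24 were so, and that share was not counted over all genes. The 95% interval of the ratio, for counting error only, lay above 1 for 73 members in db/db and 70 in db/+ cells (34.6% and 35.5% of all genes) and below 1 for 1 and 2 members (31.9% and 30.3%). Such intervals narrow with read number, and all genes were not matched to the members for level. Among genes at 200 or more in a library, 75 of 77 members in db/db and 70 of 77 in db/+ cells were higher. The shares of all genes at that level were 55.6% and 57.2%.

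The culture difference was tested with limma on all 13642 genes in an additive model of culture and genotype. Its error comes from how far the 2 genotypes' culture folds disagree, taken mostly as a trend over genes of similar level. With 12.87 prior degrees of freedom against 1 residual, an adjusted p reflects a gene's own disagreement only in small part. Of the 85 members, 65 rose and 1 fell at a Benjamini-Hochberg adjusted p under 0.05, where 29.8% of all genes rose and 27.3% fell. The model has 1 residual degree of freedom, and with the 2 similar GM-CSF libraries averaged into 1 sample 41 members rose and 1 fell (19% and 17.7% of all genes). The level of the whole set also depended on the scaling. On a total-read scale, which leaves out the authors' normalisation factors, the median of all genes moved to -0.31 (0.02 on the authors' scale) and that of the members to 0.20 (0.53), so that 28 members rose and 5 fell (16.8% and 46.7% of all genes). The distance of the members' median from that of all genes was 0.53 in db/db and 0.47 in db/+ cells on the authors' scale, and 0.52 and 0.47 on the total-read scale. Of the 65 members that rose on the authors' scale, 8 lay below 0 on the total-read scale and none of the 65 fell past the threshold there. As a share of all reads, the members together took 0.624% in both the db/db and db/+ GM-CSF libraries, against 0.536% and 0.545% in the db/db and db/+ M-CSF libraries.

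**Figure D1:**
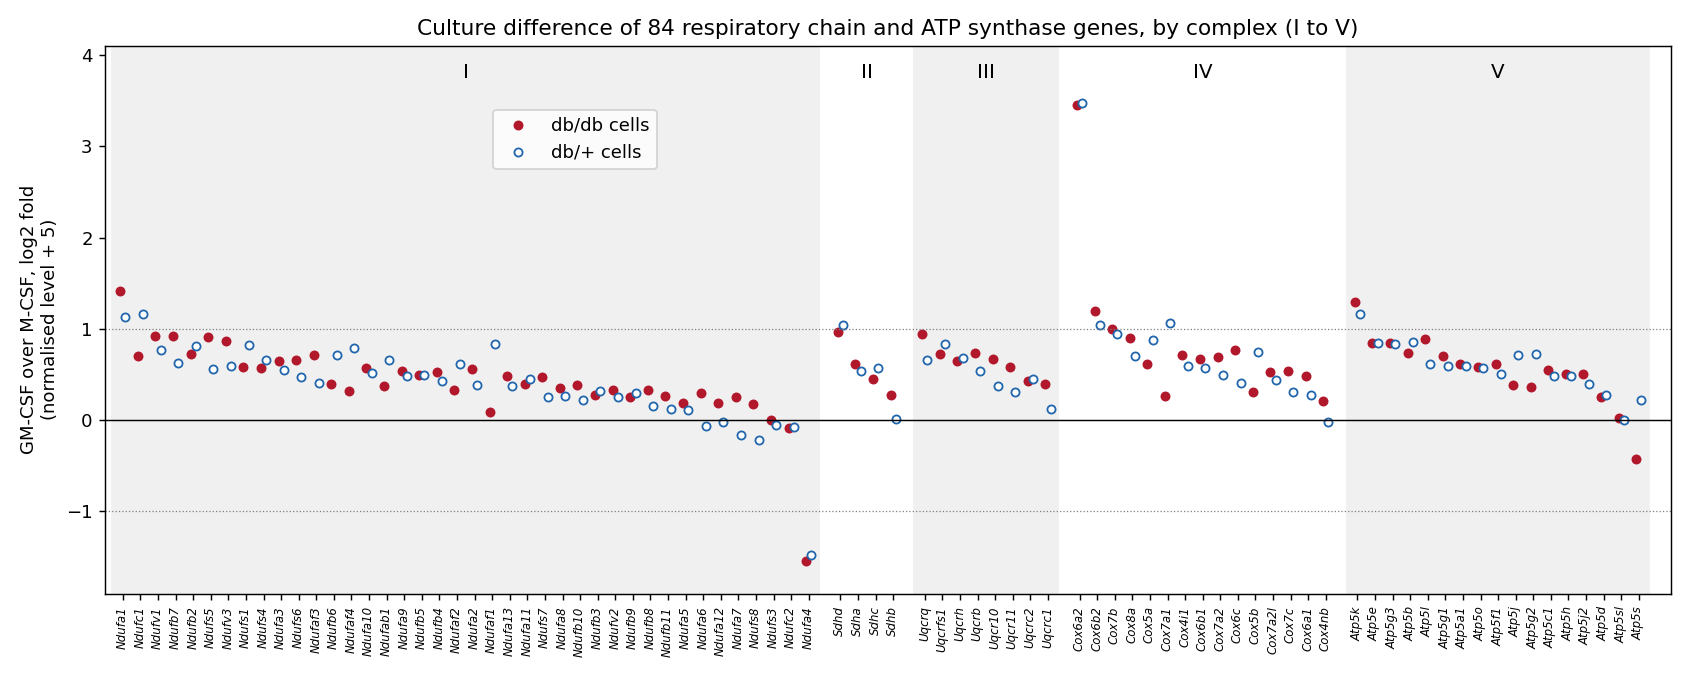
Log2 fold of GM-CSF over M-CSF (y axis, on normalised level + 5) for 84 of the 85 members (x axis), grouped by complex and ordered by mean fold; filled points are db/db cells, open points db/+ cells, and dotted lines mark 2-fold. Most points lie between 0 and 1 on the authors' scale, Cox6a2 stands above 3 and Ndufa4 below -1 in both genotypes; on the total-read scale 24 of the 85 members in db/db and 25 in db/+ cells lie below 0.

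Promoters of members from the top and the bottom of this range are shown because genes of these complexes are known to share binding sites for the factors NRF1, GABP (an ETS factor), YY1 and ERR. RefSeq promoters (assembly GRCm38.p6, 250 bases before to 50 after the start) were found for 74 of the 90 members, 80 promoters in all. The NRF1 letters GCATGCGC, on either strand, stood in 13.8% of the 80 promoters, against 2.71% of 32851 promoters in the table. The longer NRF1 motif, the same letters with GC before them, was in 6 of the 80 (7.5%), against 0.971%. These 6 belonged to Atp5g2, Atp5k, Cox6a1, Ndufa11, Ndufaf4 and Uqcrc1, whose limma log2 folds of GM-CSF over M-CSF ran from 0.26 for Uqcrc1 to 1.22 for Atp5k. The ETS letters CCGGAAG were in 21.2% of member promoters and 8.86% of all, the YY1 letters AAGATGGC in 15% and 2.75%, the ERR letters AAGGTCA in 10% and 4.72%, CCAAT in 43.8% and 37.4%, and the E-box CACGTG in 11.2% and 7.15%. Such matches describe sequence and are not shown to be bound sites. The sequences printed below are examples and not a contrast of high with low folds. Ndufa1, with a limma log2 fold of 1.27, had none of the 7 searched motifs in its RefSeq promoter. Cox7b, with 0.97, had only CCAAT. The 250 bases before the start follow for Atp5k (chr5:108434400-108434649, minus strand), where the capitals mark the NRF1 motif at positions -50 to -41, for Sdhd (chr9:50603850-50604099, minus strand), where they mark the ETS motif, read from the other strand, at -46 to -40, and for Ndufa4 (chr6:11907451-11907700, minus strand), where none of the 7 searched motifs was found. Positions count from the RefSeq start. The GENCODE transcript used for lengths begins 49 bases upstream of it for Atp5k, so the marked Atp5k motif lies at that other start. For Ndufa4 the GENCODE transcript begins 47 bases upstream and for Sdhd 37 downstream. For Ndufa1 it begins 75 downstream, beyond the 50 bases after the start that were searched. The bases just after the RefSeq start were in the GENCODE transcript for Atp5k but not for Sdhd, Ndufa4 or Ndufa1. The absence of a motif therefore holds for the bases shown in Ndufa4 and the bases searched in Ndufa1. These bases may not be the promoters of those transcripts.
Atp5k: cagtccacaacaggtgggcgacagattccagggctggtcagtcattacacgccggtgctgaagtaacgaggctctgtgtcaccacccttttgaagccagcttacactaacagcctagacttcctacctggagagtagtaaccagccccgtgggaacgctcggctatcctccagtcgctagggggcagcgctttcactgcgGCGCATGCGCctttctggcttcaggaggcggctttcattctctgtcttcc
Sdhd: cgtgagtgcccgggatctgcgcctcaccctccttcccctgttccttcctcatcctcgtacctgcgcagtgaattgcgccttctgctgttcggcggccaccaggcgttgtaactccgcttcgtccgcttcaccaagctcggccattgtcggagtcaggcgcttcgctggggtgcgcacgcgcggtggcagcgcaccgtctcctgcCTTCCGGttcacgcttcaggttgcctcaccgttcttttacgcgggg
Ndufa4: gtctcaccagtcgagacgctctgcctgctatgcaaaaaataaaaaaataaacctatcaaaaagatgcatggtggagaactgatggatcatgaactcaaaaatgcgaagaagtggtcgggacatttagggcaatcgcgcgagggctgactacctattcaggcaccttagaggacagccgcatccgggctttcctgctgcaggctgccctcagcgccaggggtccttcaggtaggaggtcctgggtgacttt

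Complex I oxidises NADH, and its members made the smallest median shift of the 5 complexes: the median log2 fold of GM-CSF over M-CSF was 0.40 in db/db and 0.43 in db/+ cells over 41 members, and 0.04 and 0.11 on the total-read scale. Of the 41, 27 rose, 1 fell and 13 did not pass the limma test. Ndufa1, a small accessory subunit of the membrane arm, was at 1027.4 and 992.6 normalised reads in db/db and db/+ GM-CSF cultures, against 382.5 and 449.9 in db/db and db/+ M-CSF cultures. Both GM-CSF levels lay above both M-CSF levels, with a limma log2 fold of 1.27 (SE 0.12, adjusted p = 5.02e-07). Ndufc1, another accessory subunit, was at 277.6 and 324.1 in GM-CSF, against 169.0 and 141.7 in M-CSF, in db/db and db/+ cells, a log2 fold of 0.93 (SE 0.19, limma adjusted p = 7.35e-04); the groups did not overlap. Ndufv1, the flavin subunit that takes up electrons from NADH, was at 2152.7 and 2072.7 in GM-CSF and 1133.6 and 1214.6 in M-CSF, with a log2 fold of 0.85 (SE 0.09, limma adjusted p = 2.18e-06). Over the 30 accessory subunits the median log2 fold was 0.44 in cells of both genotypes. At the low end, the core subunit Ndufs3 was at 264.7 and 277.0 in GM-CSF, against 264.0 and 288.2 in M-CSF, and the accessory subunit Ndufc2 at 1052.1 and 973.5, against 1117.9 and 1024.4. These 2 had limma log2 folds of -0.03 (SE 0.16) and -0.08 (SE 0.10) that did not pass the test on the authors' scale, while on the total-read scale Ndufc2 fell by 0.42 on the log2 scale with a limma adjusted p of 0.00309. Ndufa4 is counted with complex I by its name, although it is now placed in complex IV, and is described below.

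Complex II, which oxidises succinate, is built wholly from nuclear genes, and its 4 subunits differed among themselves. Sdhd, a membrane anchor, was at 4335.5 and 4383.1 in db/db and db/+ GM-CSF cultures, against 2223.7 and 2118.2 in db/db and db/+ M-CSF cultures, a limma log2 fold of 1.0 (SE 0.08, adjusted p = 1.07e-07). The iron-sulfur subunit Sdhb was at 3726.6 and 3506.0 in GM-CSF, against 3081.1 and 3473.6 in M-CSF, a log2 fold of 0.14 (SE 0.09, limma adjusted p = 0.189). The GM-CSF levels of Sdhb lay above its M-CSF levels, but in db/+ cells the ratio was 1.01, whereas the Sdhd ratio was 1.95 in db/db and 2.07 in db/+ cells. Sdha, the flavoprotein, was at 11106.5 and 10722.3 in GM-CSF, against 7245.2 and 7395.2 in M-CSF, and Sdhc, the other membrane anchor, at 3069.3 and 3446.6, against 2251.5 and 2320.8. Both rose, with log2 folds of 0.58 and 0.51. On the total-read scale Sdha and Sdhd still rose and Sdhb lay below 0.

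Complex III carries electrons from ubiquinol to cytochrome c, and all 8 of its members rose in the limma test on the authors' scale; on the total-read scale 3 rose and Uqcrc1 lay below 0. Their median log2 fold was 0.66 in db/db and 0.49 in db/+ cells. Uqcrq, an accessory subunit, was at 2126.9 and 1935.8 in db/db and db/+ GM-CSF cultures, against 1098.8 and 1226.0 in db/db and db/+ M-CSF cultures, with a log2 fold of 0.80 (SE 0.10, limma adjusted p = 7.35e-06). Uqcrfs1, the Rieske iron-sulfur protein at the catalytic centre, was at 3120.9 and 3015.9 in GM-CSF and 1889.9 and 1693.1 in M-CSF, with a log2 fold of 0.78 (SE 0.09, limma adjusted p = 2.44e-06). In neither did the cultures overlap. Smaller folds were found for the core proteins Uqcrc2, at 0.44 (SE 0.08), and Uqcrc1, at 0.26 (SE 0.09), and for the small subunit Uqcr11, at 0.45 (SE 0.15), while the hinge protein Uqcrh was at 0.67 (SE 0.09). Uqcrc1 was at 4437.7 and 4387.6 in GM-CSF, against 3375.6 and 4041.5 in M-CSF, so that most of its fold came from the db/db pair. Outside the name rule, the complex III subunit Cyc1 was at 1743.9 and 1555.6 in GM-CSF, against 1253.9 and 1159.5 in M-CSF, and cytochrome c itself, Cycs, at 1194.1 and 1123.8, against 725.8 and 629.7. Both rose on the authors' scale, by log2 folds of 0.45 (SE 0.09, limma adjusted p = 8.89e-04) and 0.77 (SE 0.11, limma adjusted p = 2.11e-05).

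Complex IV, cytochrome c oxidase, uses pairs of isoforms for several nuclear subunits, and its median log2 fold was 0.67 in db/db and 0.60 in db/+ cells over 15 members. In the limma test 12 of the 15 rose and none fell; on the total-read scale 7 rose and 1 fell. The ubiquitous isoform Cox4i1 was at 9505.7 and 9740.9 in db/db and db/+ GM-CSF cultures, against 5803.2 and 6431.7 in db/db and db/+ M-CSF cultures, and Cox8a at 4135.4 and 4193.6, against 2212.3 and 2573.8. Cox7b, a small subunit with near-identical pseudogenes, was at 2183.9 and 2051.4 in GM-CSF, against 1090.0 and 1064.3 in M-CSF, a log2 fold of 0.97 (SE 0.09, limma adjusted p = 4.28e-07). The low end of the complex held Cox6a1, at 3248.9 and 3370.3 against 2319.5 and 2774.5 (log2 fold 0.38, SE 0.09), Cox7c, at 317.4 and 314.1 against 216.1 and 252.1 (0.43, SE 0.17), and Cox4nb, at 1311.4 and 1312.3 against 1133.6 and 1332.6 (0.09, SE 0.10). Cox4nb is named for its place beside Cox4i1 and encodes a subunit of an endoplasmic reticulum membrane complex, so it is not a subunit of the oxidase; it did not pass the test on the authors' scale and was the complex IV row that fell on the total-read scale.

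The largest fold among the 85 members was that of Cox6a2, the heart and skeletal muscle isoform of subunit VIa. It was at 230.2 and 272.6 normalised reads (214 and 243 reads) in db/db and db/+ GM-CSF cultures, against 16.5 and 20.0 (19 and 21 reads) in db/db and db/+ M-CSF cultures. The ratio of GM-CSF to M-CSF was 14.0 in db/db cells (95% interval on read pairs 6.91 to 28.3) and 13.6 in db/+ cells (7.06 to 26.9), and the limma log2 fold was 3.46 (SE 0.28, adjusted p = 6.23e-08). Per kilobase of transcript, Cox6a2 made up 5.62% and 6.36% of the sum of Cox6a2 and Cox6a1 in db/db and db/+ GM-CSF cultures, against 0.594% and 0.602% in db/db and db/+ M-CSF cultures. The liver-type isoform Cox6a1 therefore stayed the more abundant in every library. In the RefSeq annotation of GRCm38.p6, Cox6a2 overlaps the integrin gene Itgad by 70 bases of its 932. Itgad was at 4605.5 and 4772.3 in GM-CSF, against 97.6 and 91.3 in M-CSF. The next gene on that side, Itgax (the integrin CD11c, a marker of dendritic cells), was at 56258.8 and 56041.7, against 921.0 and 775.2. On the other side, 9130023H24Rik was at 391.6 and 380.2, against 494.0 and 545.0, and Armc5 at 683.1 and 643.8, against 1106.6 and 1283.1, both lower in GM-CSF. Beyond Itgax, the integrin gene Itgam was at 46867.1 and 44643.1, against 38945.6 and 40331.9, and did not pass the test (limma log2 fold 0.21, SE 0.11, adjusted p = 0.126). The sources do not say whether the libraries keep the strand, so reads in the shared 70 bases cannot be told apart, and their part in the Cox6a2 level was not tested.

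Other tissue-specific isoforms of complex IV were low. Cox6b2, the testis isoform of subunit VIb, was at 60.3 and 66.2 in db/db and db/+ GM-CSF cultures, against 23.5 and 29.5 in db/db and db/+ M-CSF cultures, a log2 fold of 1.12 (SE 0.34, limma adjusted p = 0.0113; 0.0522 on the total-read scale, and 0.232 with DESeq2). Per kilobase it made up 1.60% and 1.89% of Cox6b2 and Cox6b1 together in GM-CSF, and 1.0% and 1.26% in M-CSF; Cox6b1, the common isoform, was at 4130.0 and 3842.5, against 2589.6 and 2591.9. Cox7a1, the muscle isoform of subunit VIIa, was at 34.4 and 57.2 in GM-CSF, against 27.9 and 24.7 in M-CSF. Its ratio was 2.32 in db/+ cells (1.17 to 5.0) and 1.23 in db/db cells (0.578 to 2.64), and it did not pass the limma test (log2 fold 0.66, SE 0.38, adjusted p = 0.149). The common partner Cox7a2 was at 2261.3 and 2033.4, against 1402.0 and 1438.1, and rose by a log2 fold of 0.59 (SE 0.09). Cox4i2, the isoform known from lung, was at 3.2 and 3.4 in GM-CSF, against 7.0 and 5.7 in M-CSF, and the muscle isoform Cox8b at 1.1 and 3.4, against 3.5 and 3.8. A count of 3 read pairs corresponds to 6.45 and 6.73 normalised reads in db/db and db/+ GM-CSF, and 5.23 and 5.71 in db/db and db/+ M-CSF, so these 2 were at or near the limit of detection.

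Ndufa4 went against the other members. It was at 604.6 and 587.7 in db/db and db/+ GM-CSF cultures, against 1768.8 and 1640.7 in db/db and db/+ M-CSF cultures, a ratio of 0.342 (95% interval on read pairs 0.298 to 0.390) and 0.358 (0.311 to 0.412). Its limma log2 fold was -1.51 (SE 0.10, adjusted p = 9.81e-09), and it was the 1 member that fell on the authors' scale. The close relative Ndufa4l2, known to be induced by low oxygen, was at 0 and 4.5 in GM-CSF and 6.1 and 6.7 in M-CSF, at or near the limit of 3 read pairs. A further relative outside the name rule, AA467197 (also Nmes1), was looked up after these values were seen. Its human counterpart C15orf48 is known to take the place of NDUFA4 in complex IV in inflammation. AA467197 was at 3148.9 and 3023.8 in db/db and db/+ GM-CSF cultures, against 21.8 and 37.1 in db/db and db/+ M-CSF cultures, a ratio of 144 (81.1 to 262) in db/db and 81.5 (51.3 to 131) in db/+ cells. The limma log2 fold was 6.52 (SE 0.18, adjusted p = 5.58e-13). Per kilobase of transcript, AA467197 was at 2.97 and 2.94 times the level of Ndufa4 in db/db and db/+ GM-CSF cultures, and at 0.00703 and 0.0129 times its level in db/db and db/+ M-CSF cultures. Ndufa4 thus had the higher level per length in M-CSF, and AA467197 in GM-CSF.

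**Figure D2:**
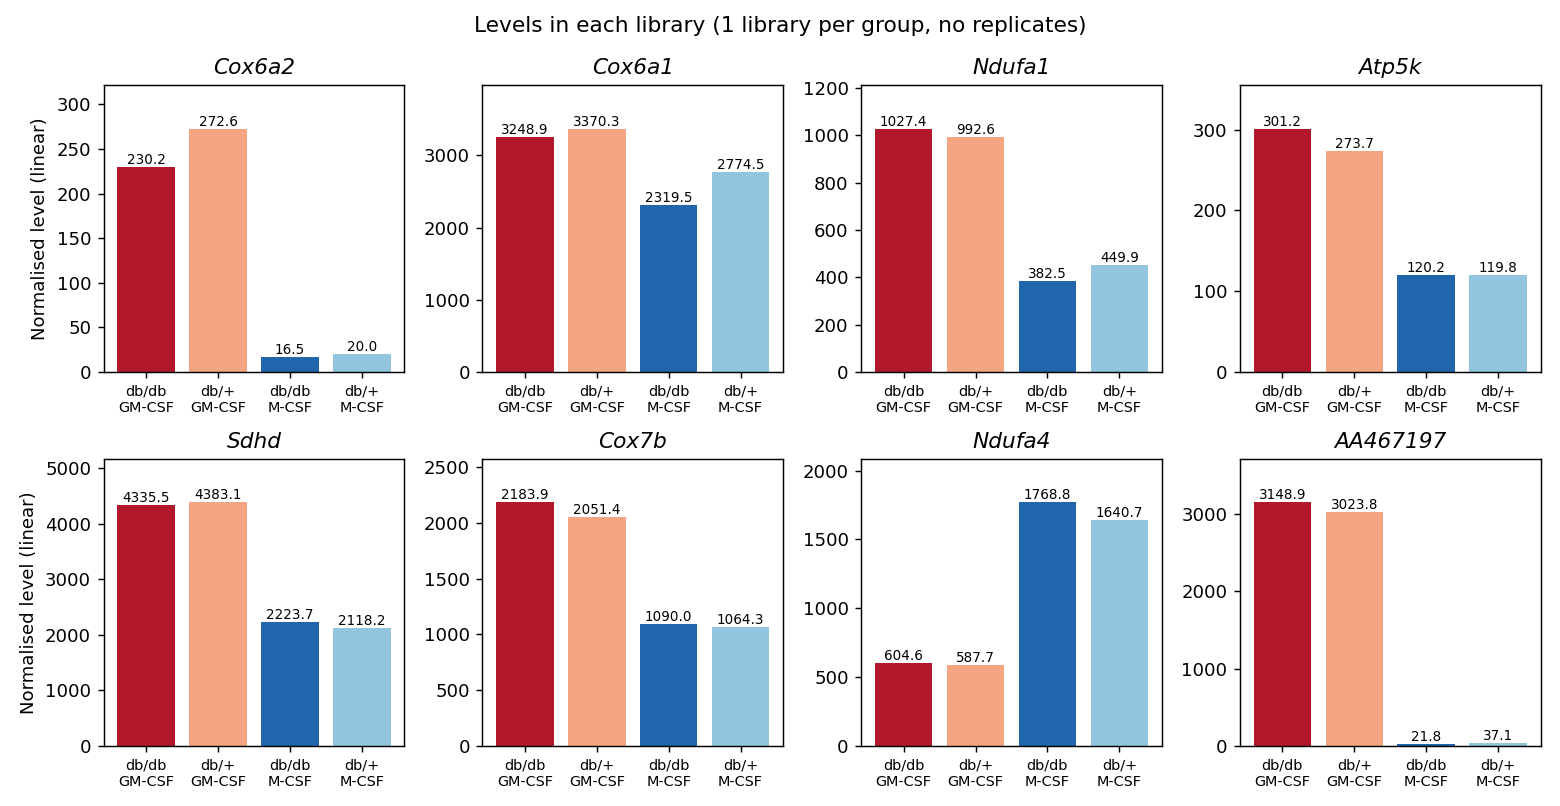
Normalised level (y axis, linear, starting at 0 and scaled separately for each gene) of 8 genes in the 4 libraries (x axis), 1 bar per library with no replicates and so no error bars. Cox6a2, Ndufa1, Atp5k, Sdhd, Cox7b and AA467197 are higher in both GM-CSF libraries, Ndufa4 is lower in both, and Cox6a1 changes least.

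Complex V makes ATP from the proton gradient, and its 17 members had a median log2 fold of 0.58 in db/db and 0.60 in db/+ cells. In the limma test 15 rose and none fell, and on the total-read scale 7 rose and none fell. The most abundant members by normalised level, named after their values were seen, were the catalytic head subunits. Atp5a1 (alpha) was at 20745.7 and 21039.6 in db/db and db/+ GM-CSF cultures, against 13571.2 and 13890.7 in db/db and db/+ M-CSF cultures, and Atp5b (beta) at 18711.3 and 18480.2, against 11230.8 and 10178.3. Their log2 folds of 0.61 (SE 0.09) and 0.80 (SE 0.09) lay above the limma median of the complex, 0.56. The 4 stalk subunits (Atp5f1, Atp5h, Atp5j and Atp5o) had a median log2 fold of 0.54 in cells of both genotypes. Atp5k, subunit e of the membrane part, which is known for its role in dimers of the enzyme, was at 301.2 and 273.7 in db/db and db/+ GM-CSF cultures, against 120.2 and 119.8 in db/db and db/+ M-CSF cultures. The groups were well apart, with a log2 fold of 1.22 (SE 0.19, limma adjusted p = 7.15e-05), and the gene has 1 near-identical pseudogene. The head subunit Atp5e (epsilon) was at 3099.4 and 2990.1 in GM-CSF, against 1720.9 and 1666.4 in M-CSF, a log2 fold of 0.84 (SE 0.09, limma adjusted p = 8.98e-07), while Atp5d (delta) was at 2579.8 and 2845.4, against 2161.8 and 2354.1, a log2 fold of 0.26 (SE 0.09, limma adjusted p = 0.0162) that turned below 0 on the total-read scale. The 3 genes Atp5g1, Atp5g2 and Atp5g3 encode the same mature subunit c, which forms the rotating ring, and Atp5g1 and Atp5g2 have near-identical pseudogenes. Atp5g3 was at 5120.8 and 5047.1, against 2851.0 and 2821.1 (log2 fold 0.84, SE 0.08), Atp5g2 at 1298.5 and 1456.9, against 1005.5 and 880.8 (0.55, SE 0.11), and Atp5g1 at 597.1 and 653.9, against 366.0 and 430.9 (0.65, SE 0.13). All 3 rose, and per kilobase Atp5g2 stood at 0.411 and 0.467 times Atp5g3 in GM-CSF, and at 0.571 and 0.506 times in M-CSF. Atp5s and Atp5sl, which the name rule takes in although they are not subunits of the enzyme, did not pass the test: Atp5s was at 53.8 and 72.9 in GM-CSF, against 74.1 and 61.8 in M-CSF, and Atp5sl at 406.7 and 417.2, against 400.8 and 415.7.

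Genes of the mitochondrion outside the rule differed by list. On the authors' scale most of the TCA cycle genes and of the other mitochondrial proteins rose, as most members did. Their limma medians were 0.44 and 0.45, against 0.53 for the members. Over all genes 29.8% rose and 27.3% fell in the limma test, and 16.8% and 46.7% on the total-read scale. Of 17 genes of the TCA cycle and pyruvate dehydrogenase, 12 rose and 1 fell in the limma test, with a median log2 fold of 0.37 in db/db and 0.50 in db/+ cells. Ogdh, of the oxoglutarate dehydrogenase complex, was at 4273.1 and 4618.7 in db/db and db/+ GM-CSF cultures, against 2349.1 and 2610.9 in db/db and db/+ M-CSF cultures, and citrate synthase, Cs, at 6466.6 and 6428.9, against 4206.8 and 4057.6. The exception was fumarase, Fh1, the enzyme that follows complex II in the cycle. It was at 1278.1 and 1384.0 in GM-CSF, against 2587.0 and 2494.9 in M-CSF, a log2 fold of -0.93 (SE 0.09, limma adjusted p = 6.11e-07). The ADP/ATP carrier Slc25a5, which exchanges the product of complex V, was at 10032.9 and 9967.4, against 4495.3 and 3822.7, a log2 fold of 1.27 (SE 0.09, limma adjusted p = 1.2e-08). Of 23 other mitochondrial proteins, 17 rose and none fell. On the total-read scale 3 of the 17 TCA genes rose and 4 fell, and 6 of the 23 others rose and 4 fell, while Fh1 still fell and Slc25a5 still rose.

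Among 14 regulators of transcription and mitochondrial DNA, 5 rose and 3 fell, where 29.8% of all genes rose and 27.3% fell. On the total-read scale 1 rose and 7 fell (16.8% and 46.7% of all genes). Ppargc1b, a coactivator of genes for oxidative metabolism, was at 390.5 and 323.0 in db/db and db/+ GM-CSF cultures, against 46.2 and 73.2 in db/db and db/+ M-CSF cultures, a log2 fold of 2.51 (SE 0.24, limma adjusted p = 4.82e-07). Its relative Ppargc1a was below 20 in every library. Polg, the mitochondrial DNA polymerase, was at 972.5 and 1000.5, against 1972.7 and 1987.0, and fell by 1.0 on the log2 scale (SE 0.09, limma adjusted p = 3.57e-07). Of the factors named for the NRF1, ETS, ERR and YY1 motifs, Gabpb1, the beta subunit of GABP, fell by 0.38 on the log2 scale (SE 0.13, limma adjusted p = 0.0228). The others did not pass the test on the authors' scale: Nrf1 had a log2 fold of -0.18 (SE 0.10, limma adjusted p = 0.163), Gabpa 0.08 (SE 0.10), Esrra 0.23 (SE 0.11) and Yy1 -0.13 (SE 0.10). For comparison, the 80 cytosolic ribosomal protein genes had a median of 0.18 in db/db and 0.05 in db/+ cells. Of these 80, 21 rose and 2 fell (29.8% and 27.3% of all genes). On the total-read scale none of the 80 rose and 32 fell (16.8% and 46.7% of all genes).

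**Figure D3:**
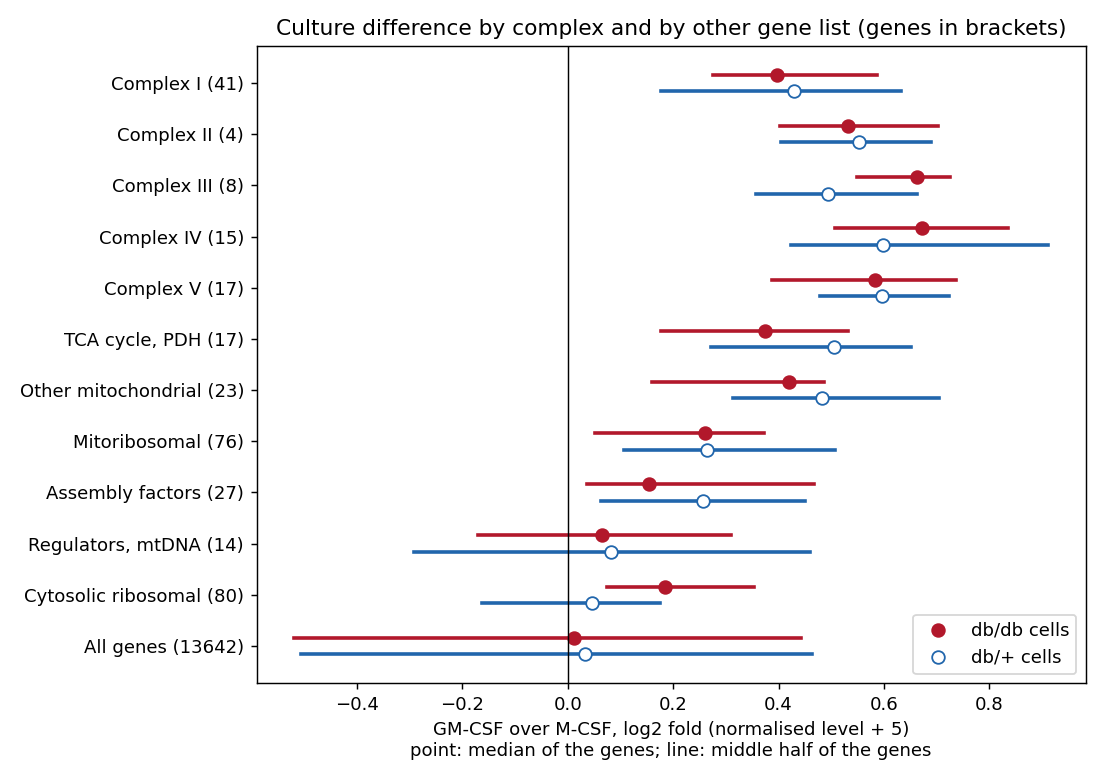
Median (point) and middle range from the lower to the upper quartile (line) of the log2 fold of GM-CSF over M-CSF on normalised level + 5 (x axis) for each complex and other gene list (y axis, genes in brackets), db/db cells filled and above, db/+ cells open and below. The 5 complexes lie between 0.40 and 0.67, all genes near 0 on the authors' scale; on the total-read scale the complexes lie between 0.04 and 0.32 and all genes below 0.

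Between db/db and db/+ cells the members differed little. Set against db/+, the db/db cells had a median member log2 fold of 0.02 in GM-CSF, with 48 members higher and 37 lower (52.4% and 46% of all genes), and of -0.05 in M-CSF, with 36 higher and 49 lower (54% and 45.9% of all genes). Over all genes the medians were 0.01 and 0.02. In neither culture was any of the 85 members at least 2-fold apart, and in M-CSF none was 1.5-fold apart (9.41% of all genes higher and 2.76% lower). At 1.5-fold, 1 member, Cox7a1 in GM-CSF, was lower in db/db and none was higher (2.41% and 2.65% of all genes); its level was 34.4 for db/db and 57.2 for db/+ cells, a ratio of 0.601 (0.296 to 1.14). In the limma test of genotype no member passed the threshold (0 of 85, and 1 at an unadjusted p under 0.05; 0.00733% of all genes were called higher and 0% lower); edgeR gave 0 (1 unadjusted) and DESeq2 0 (0 unadjusted). The member with the smallest limma p, named for that after its values were seen, was the complex I accessory subunit Ndufb4. It was at 248.5 and 170.8 in db/db GM-CSF and M-CSF cultures, against 168.2 and 123.6 in db/+ GM-CSF and M-CSF cultures, a log2 fold of 0.50 (SE 0.20, limma unadjusted p = 0.0239, adjusted p = 1), and has a near-identical pseudogene. In both cultures 24 of the 85 members were higher in db/db and 25 were lower. The share of all genes with the same direction in both was not counted, so these counts show no trait of the members. For complex III all 8 members were higher in db/db in GM-CSF (median 0.09), while 5 of 8 were lower in M-CSF (median -0.14).

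More members differed between the genotypes by more than counting error in M-CSF than in GM-CSF. The 95% interval of the ratio of db/db to db/+ excluded 1 for 7 higher and 3 lower members in GM-CSF (4.3% and 2.41% of all genes) and for 10 higher and 20 lower members in M-CSF (19.7% and 14.3% of all genes). Among the lower ones in M-CSF, chosen here after their values were seen, Ndufb7, an accessory subunit of complex I, had a level of 1002.9 for db/db and 1231.7 for db/+ cells, a ratio of 0.814 (0.727 to 0.912), and Uqcrc1 at 3375.6 against 4041.5, a ratio of 0.835 (0.785 to 0.888). Cox6a1 had a ratio of 0.836 (0.775 to 0.901), Cox8a of 0.860 (0.796 to 0.929) and Sdhb of 0.887 (0.830 to 0.947). On the higher side stood Atp5j, a stalk subunit of complex V, with 1736.6 for db/db and 1367.8 for db/+ cells, a ratio of 1.27 (1.15 to 1.40), and Atp5b, with a ratio of 1.10 (1.06 to 1.14). By complex, 11 of 15 members of complex IV were lower in db/db in M-CSF (median -0.15), and 10 of 17 members of complex V were higher (median 0.02, as over all genes). The direction in M-CSF moved with the base composition of the transcript. Of the 28 members with the highest GC content (54.3% to 61.1%), 7 were higher and 21 lower in db/db, with a median of -0.17. Of the 29 with the lowest GC content (39.0% to 49.0%), 19 were higher and 10 lower, with a median of 0.07. Spearman's rho between GC content and the M-CSF fold of db/db over db/+ was -0.44 over 85 members and -0.29 over 12813 genes, or -0.47 over the 8289 genes at 200 or more in every library, and it was 0.03 over the members in GM-CSF. These are descriptions across genes of a single pair of libraries, which share depth and preparation. The summed stromal marker level also differed between the M-CSF libraries (73504.6 in db/db against 26645.6 in db/+), and its part in the members' folds was not tested.

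**Figure D4:**
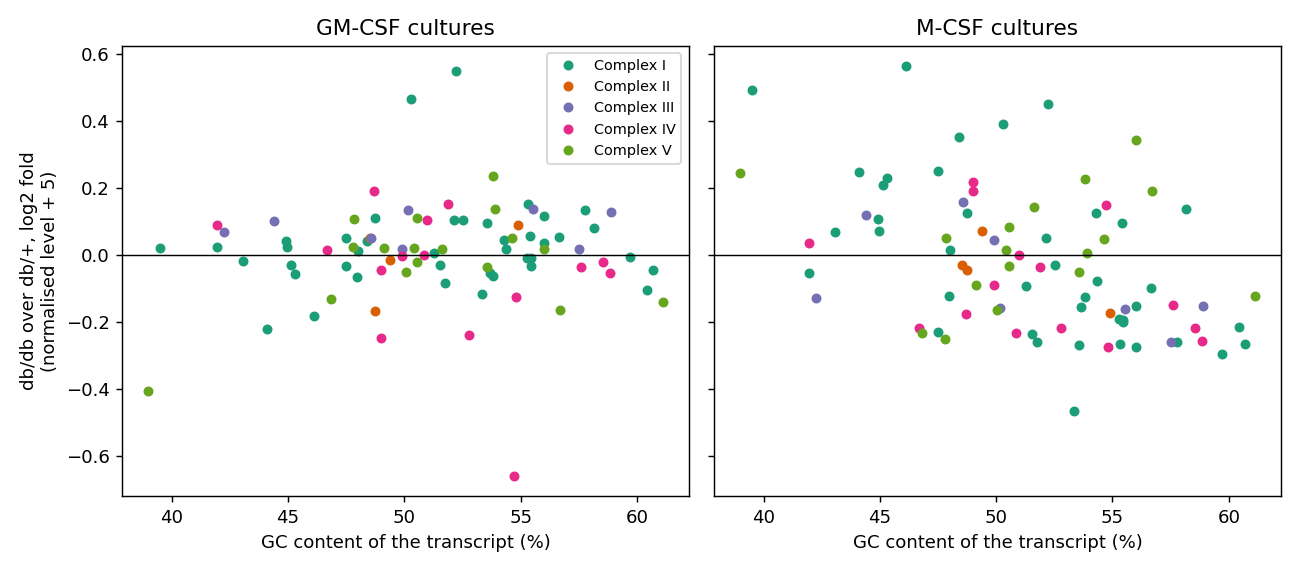
Log2 fold of db/db over db/+ on normalised level + 5 (y axis) against the GC content of the transcript in percent (x axis) for the 85 members, coloured by complex, in GM-CSF (left) and M-CSF cultures (right). In M-CSF the GC-rich members lie mostly below 0 and the GC-poor ones mostly above, with a Spearman's rho of -0.44, while in GM-CSF rho is 0.03.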

How the data were processed

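RNA from 4 cultures (1 library per group) was sequenced in read pairs. The deposited values are a signal: per the submitters' processing notes reads were handled with TopHat 1.2.0 and edgeR, the builds listed are mm8 and mm9 with no role stated, and the names the authors gave the files call the values TMM normalised. The values were whole read counts divided by a library factor and rounded: with a tolerance of 0.1 read, 100% of low values and at least 99.9575% of all values came out whole after division by 1.0758, 1.12157, 0.871345 and 0.951156 in the db/db and db/+ GM-CSF and the db/db and db/+ M-CSF libraries. Low read numbers were more often even than odd, so mates appear to have been counted separately, and ratio intervals are exact conditional binomial 95% intervals on read pairs. They cover counting error only. The sources used here do not give the aligner's settings, the counting tool or its annotation. Unused per-sample columns numbered 0.

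Log2 folds were taken on log2(value + 5) for genes with 20 or more in a library, which understates changes of low genes. limma 3.58.1 (lmFit, eBayes with a variance trend) tested culture and genotype in an additive model over all 4 libraries, with 1 residual degree of freedom and 12.87 prior ones, two-sided, adjusted over 13642 genes at 0.05; no interaction could be tested. It was checked on simulated data. Where nothing says that libraries came from separate animals, the p-values measure only the spread between these libraries. Since the deposited values are scaled, edgeR 4.0.16 (on the recovered reads, 3763 genes higher and 3983 lower in GM-CSF) and DESeq2 1.42.0 were alternatives, with a pseudocount of 1 or 20, no filter, a level minimum of 200, total-read and median-of-ratios scaling, limma without the trend or without the other factor, and averaged GM-CSF libraries.

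The members, the other gene lists and the markers were chosen with earlier results of these data known. Members were named by rule: in each complex the 3 highest and 3 lowest mean culture folds (all of complex II), every member 2-fold apart in a comparison, and isoform pairs. Of the other lists, only some of the genes that passed a test or were 2-fold apart are named, as examples. Other exceptions are marked. Transcript length and GC content came from GENCODE vM21, with 1 principal transcript per gene; near-identical pseudogenes were matches of the coding sequence at 95% identity over 80% of its length (BLAST+ 2.17.0), found for 21 of the 85 members, whose reads the authors' counting could split. Promoters came from RefSeq (GRCm38.p6), a build other than those named in the notes, so no position in the files was used. The values of 1 member are not reported here by name, and it is counted in the totals.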

Additional observations from a re-analysis of the deposited data

Results flagged for a closer look

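Atp5g2, 1 of the 3 genes for subunit c of ATP synthase, moved in opposite directions between the genotypes in the 2 cultures. The db/db GM-CSF culture had 1298.5 normalised reads and the db/+ one 1456.9, a ratio of 0.891 with a 95% interval on read pairs of 0.797 to 0.997. The db/db M-CSF culture had 1005.5 and the db/+ one 880.8, a ratio of 1.14 (1.01 to 1.29). Both intervals cover counting error only and end close to 1, the difference between the cultures was not tested, and the gene has 2 near-identical pseudogenes and 1 other near-identical gene.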

How the results depend on the processing

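The culture medians and counts of the members kept their direction under the alternatives run, but not their size. On the total-read scale the median log2 fold of GM-CSF over M-CSF was 0.19 in db/db and 0.18 in db/+ cells, 2 and 1 members were at least 2-fold higher, and 28 rose and 5 fell in limma; that scale also lowered all genes. limma without a variance trend called 42 members higher, and averaging the GM-CSF libraries 41. The DESeq2 count of 45 and edgeR's 61 stayed within 1.5 times of 65. The number of all 13642 genes called higher also changed, from 4062 in the main fit. It was 2859 without the trend, 2714 with DESeq2 and 3763 with edgeR. Without the level minimum 2 members were at least 2-fold lower in db/db cells, the second being Ndufa4l2 at 0 in GM-CSF. In all alternatives 28 members kept a rise past the threshold and 1, Ndufa4, a fall. The share of all genes that did so was not counted. Of 13 named folds of at least 2-fold, none changed sign in 88 alternative values, and 12 of these values were under 2-fold. A changed filter leaves a fold as it is, and a changed pseudocount cannot turn its sign. Only the values from other scalings and from the GC correction could have changed sign. Folds corrected for GC content, members without near-identical pseudogenes and subunits alone were added after the data were seen. They moved the medians by less than the counting error of a typical single member (0.161 to 0.167 on the log2 scale). That width exceeds the genotype medians themselves (0.02 in GM-CSF and -0.05 in M-CSF). It therefore cannot show whether the genotype medians kept their direction. No paired analysis was possible because each group has 1 library and the labels carry no replicate numbers. The additive model already compares the cultures within genotype. Without genotype as a factor 67 members rose and 1 fell, where 4068 and 3672 of all 13642 genes did. With 1 library per group, leaving out a library leaves no test of culture and genotype together.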

Other observations

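Of 27 assembly factors outside the name rule, 8 rose and 2 fell in the limma test of culture (29.8% and 27.3% of all genes). The share that rose was near that of all genes. Their median log2 fold was 0.15 in db/db and 0.26 in db/+ cells. On the total-read scale 1 rose and 5 fell (16.8% and 46.7% of all genes). Cox17, the copper chaperone of complex IV, was at 802.5 and 840.1 in db/db and db/+ GM-CSF cultures, against 556.8 and 464.2 in db/db and db/+ M-CSF cultures. Sdhaf2, which attaches flavin to Sdha, was at 1414.7 and 1368.3, against 1007.3 and 1008.2. Oxa1l, an insertase of the inner membrane, fell, at 1415.8 and 1425.5 against 1580.6 and 1889.0. The 4 assembly factors of complex I taken in by the name rule (Ndufaf1 to Ndufaf4) had a median of 0.32 in db/db and 0.70 in db/+ cells. The difference between assembly factors and subunits was not tested.

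Of 76 mitochondrial ribosomal protein genes, which make the subunits encoded by mitochondrial DNA, 29 rose and 2 fell (29.8% and 27.3% of all genes). Their median log2 fold was 0.26 in cells of both genotypes. On the total-read scale 5 rose and 11 fell (16.8% and 46.7% of all genes). Mrpl41 had a limma log2 fold of 1.2 (SE 0.13). The 21 members with a near-identical pseudogene had a median culture fold of 0.58 in db/db and 0.48 in db/+ cells, against 0.50 and 0.53 for the 64 without, and a median level per kilobase of 698 against 1533.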
